A study of Mus musculus with 12 samples.

Results

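Hearts that carry a deletion allele of Nkx2-5 beside a + allele (Nkx2-5 delta/+) were compared, gene by gene, with hearts of the control knock-in line (Nkx2-5 control/+), whose altered allele keeps the isoleucine that the other knock-in lines of the series replace. The comparison was defined by genotype alone and holds 6 of the 12 arrays, 3 of Nkx2-5 delta/+ and 3 of Nkx2-5 control/+. The remaining 6 arrays, 3 of Nkx2-5 I183M/+ and 3 of Nkx2-5 I183P/+, were used to share the estimate of spread and to show where the deletion line and the control line lay beside a further pair of lines. All were total RNA from the heart apex of male C57BL/6J mice 15 weeks old, measured on single-colour Agilent expression arrays. Every group, the control line included, carries an engineered allele together with a + allele, so no unmodified heart and no heart without Nkx2-5 was analysed here. Whether the 3 samples of a group came from separate animals is not stated, so the p-values measure the spread between these samples.

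Nkx2-5 encodes a homeodomain transcription factor that is among the earliest markers of the heart field. It binds DNA together with Gata4, Tbx5 and other cardiac factors, and in the grown heart it takes part in keeping up the genes of the conduction system, of ion channels and of the contractile apparatus. Loss of one copy causes septal defects and atrioventricular block in people, and is milder in mice. The comparison asks which RNAs of the adult apex differ when an allele is deleted.

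Levels below are log2 intensities after background correction and quantile normalization, in which every array is given the same distribution of values. A fold is the mean of delta minus the mean of control on that scale, and a constant of 50 added to every spot makes the folds of dim probes smaller than the change in RNA. The levels of different probes cannot be set against each other. A feature is a gene with a symbol or, where the array's accession has no symbol, that accession or interval, and 26490 features (15827 with a symbol) were tested with limma over all 12 arrays with Benjamini-Hochberg adjustment, the threshold being an adjusted p of 0.05. In whole tissue, fewer cells of a type and less RNA per cell cannot be told apart.

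Control replicate 1 stood apart, with 99.1% of its spots well above background against 51.2% to 75.2% on the other 11 arrays, and its best rank correlation with any array over all probes was 0.877 against 0.942 to 0.968 for the others. Results are therefore also given without it, a choice of array made with the data known. All 3 delta arrays lay on 1 slide together with I183P replicate 3, and all 3 control arrays lay on the other slide with the 3 I183M arrays and the remaining I183P arrays. No slide held both groups, so slide and genotype cannot be told apart in this comparison, and the I183P arrays are its only bridge. The 14 markers of ventricular heart muscle that were tested were well above background on all 6 arrays. Many of them are among the brightest probes, whose values quantile normalization nearly fixes, so their folds do not measure muscle content. The list's median fold was -0.01, against 0.51 with the 75th percentile scaling and 0.73 with median centring, where the median of all features was 0.13 and 0.36.

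Nkx2-5 itself was read by 1 probe on chromosome 17. The delta arrays read 12.77, 12.86 and 12.89, against 13.60, 13.53 and 13.58 on the control arrays. Every delta array lay below every control array, and also below the I183M and I183P arrays, which averaged 13.69 and 13.67. The fold was -0.73 (SE 0.091, n = 3 each, limma adjusted p 0.0242), a ratio of 0.603 with a 95% interval of 0.524 to 0.694, and the exact two-sided permutation p was 0.1, the smallest that 20 splits of 3 against 3 allow. Against I183M the fold was -0.85 (adjusted p 0.0182) and against I183P -0.83 (adjusted p 0.0279), and within the slide that holds the delta arrays, the difference of delta from the 1 I183P array was -0.79. With the slide as a block the fold was -0.67 (SE 0.168), with an adjusted p of 0.987. Across 23 alternative settings the fold lay between -0.75 and -0.07 and the call held in 11. Leaving out control replicate 2 or 3 or any 1 delta array gave -0.75 to -0.69 with adjusted p between 0.0766 and 0.149, and leaving out control replicate 1 gave -0.72 (adjusted p 0.0122). The files do not place the probe relative to the deletion, so this reading does not check the genotype.

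Of 26490 features, 33 passed (0.125%), 12 higher (0.0453%) and 21 lower (0.0793%) in delta, while 2894 had an unadjusted p under 0.05 where chance gives 1324.5. That excess depended on the fit: the number was 1345, near that of chance, with the 6 arrays alone. With the slide as a block it was 905, below that of chance. Of the 12 that rose, 5 have a symbol, and of the 21 that fell, 12 have a symbol. All 33 were well above background on all 6 arrays and had no overlap between the groups, which held for 4423 features (16.7%) in all. The median fold over all features was 0.05, and 56.7% were above 0. Without control replicate 1 the count was 366 (1.38%), 171 higher (0.646%) and 195 lower (0.736%), among them all 33, and the median fold was 0.01. The count rested on the other arrays as well: it was 1 higher and 8 lower without control replicate 2, 2 higher and 8 lower without control replicate 3, and 5, all lower, without any 1 of the delta replicates. The split was not settled: the number of features higher in delta than in control and the number of features lower in delta than in control turned to 44 higher and 31 lower when probes had to be above background on all 12 arrays and to 134 higher and 83 lower with a trended, robust prior, and was 112 and 111 with array weights. Other scalings gave 3 higher and 21 lower with the processed signal relative to its 75th percentile and 2 higher and 11 lower with the processed signal after quantile normalization. Centring each array on its median moved the median of all features to 0.36 and left no call (0 by limma, 567 with an unadjusted p under 0.05).

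**Figure D1:**
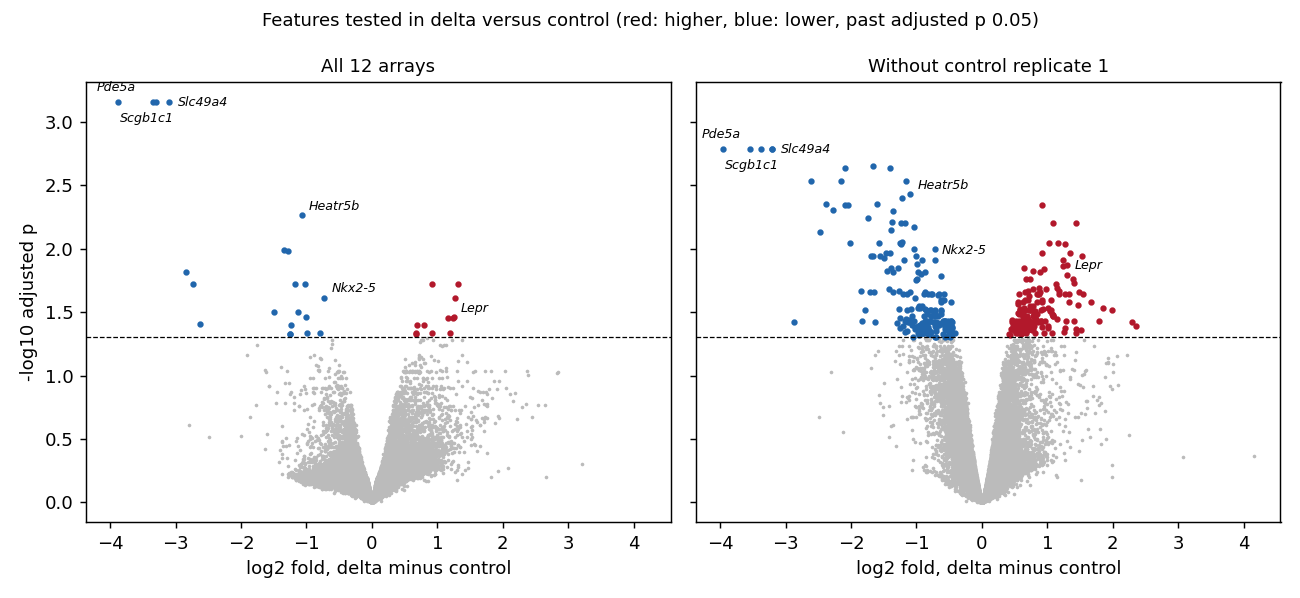
Each point is 1 of 26490 features, with the log2 fold of delta minus control on the x axis and -log10 of the limma adjusted p on the y axis, with all 12 arrays on the left and without control replicate 1 on the right; the dashed line is an adjusted p of 0.05. With all arrays 12 features passed on the higher side and 21 on the lower, and without control replicate 1 these were 171 and 195, with Pde5a, Scgb1c1 and Slc49a4 at the far left of both panels.

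The deepest fall was that of Pde5a on chromosome 3, the phosphodiesterase that breaks down cyclic GMP and is the target of sildenafil. Pde5a read 9.24, 9.44 and 9.34 on the delta arrays, against 13.28, 13.20 and 13.18 on the control arrays. The groups did not overlap, and all delta arrays lay below all other 9 arrays of the series. The fold was -3.88 (SE 0.26, adjusted p 6.98e-04), a ratio of 0.0679. The other lines lay between delta and control, with 12.16, 12.81 and 12.11 in I183M and 12.31, 12.48 and 11.45 in I183P, and delta was below both, by a fold of -3.02 (adjusted p 0.00879) and of -2.74 (adjusted p 0.0279). The lowest of these, I183P replicate 3, is the one that shares the slide of the delta arrays, and within that slide the difference of delta from it was -2.12. With the slide as a block the Pde5a fold was -2.94 (adjusted p 0.115). The call held in 20 of 23 alternatives, the exceptions being median centring and the slide block with and without control replicate 1.

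Slc49a4 on chromosome 16, a membrane transporter of the lysosome, followed the same course. It read 9.12, 9.15 and 9.11 on the delta arrays, against 12.21, 12.22 and 12.25 on the control arrays. The fold was -3.10 (SE 0.23, adjusted p 6.98e-04), a ratio of 0.117. Its I183M levels were 11.32, 11.91 and 11.25 and its I183P levels 11.32, 11.59 and 10.70, so that I183M replicate 2 was the highest and I183P replicate 3 the lowest of these 6 arrays, as for Pde5a. The Slc49a4 fold of delta against I183M was -2.37 (adjusted p 0.011) and against I183P -2.08 (adjusted p 0.0279), and the slide-block fold was -2.35 (adjusted p 0.131). An interval without a gene symbol, at chr13:70745633-70776516 of build mm9 in the array's layout, had the same order: 8.45, 8.36 and 8.43 on the delta arrays, against 11.62, 11.88 and 11.76 on the control arrays, and 10.84, 11.17 and 10.18 in I183P. Its fold was -3.34 (SE 0.24, adjusted p 6.98e-04), and it passed against both other lines. Further called features without a symbol had that order too, among them AI429812 (-2.84), the interval chr15:92197603-92208534 (-2.73) and TC1619275 (-2.63). Of those named here, none passed against I183M or I183P. No second probe of Pde5a or Slc49a4 was measured. Whether these probes read separate transcripts was not tested.

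Scgb1c1 on chromosome 7, a secretoglobin known from the airway and nose and also measured without a second probe, had a different pattern. It read 9.46, 9.68 and 9.30 on the delta arrays, against 12.85, 12.72 and 12.79 on the control arrays, with a fold of -3.30 (SE 0.24, adjusted p 6.98e-04). I183M (9.35, 8.61 and 9.01) and I183P (9.56, 8.94 and 8.67) lay at the level of delta, so the control line alone was high. The fold of delta against I183M was 0.49 (adjusted p 0.773) and against I183P 0.43 (adjusted p 1), while I183M and I183P were themselves lower than control, with folds of -3.80 and -3.73 (adjusted p 7.62e-04 and 8.98e-04). An interval at chr17:32035750-32056000 of build mm9 was also high in control alone: 9.63, 9.55 and 9.44 in delta, against 10.94, 10.83 and 10.88 in control, with means of 9.45 in I183M and 9.53 in I183P. A second called interval lies inside it and had a fold of -1.49 against -1.34, so these overlapping intervals are not separate observations.

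**Figure D2:**
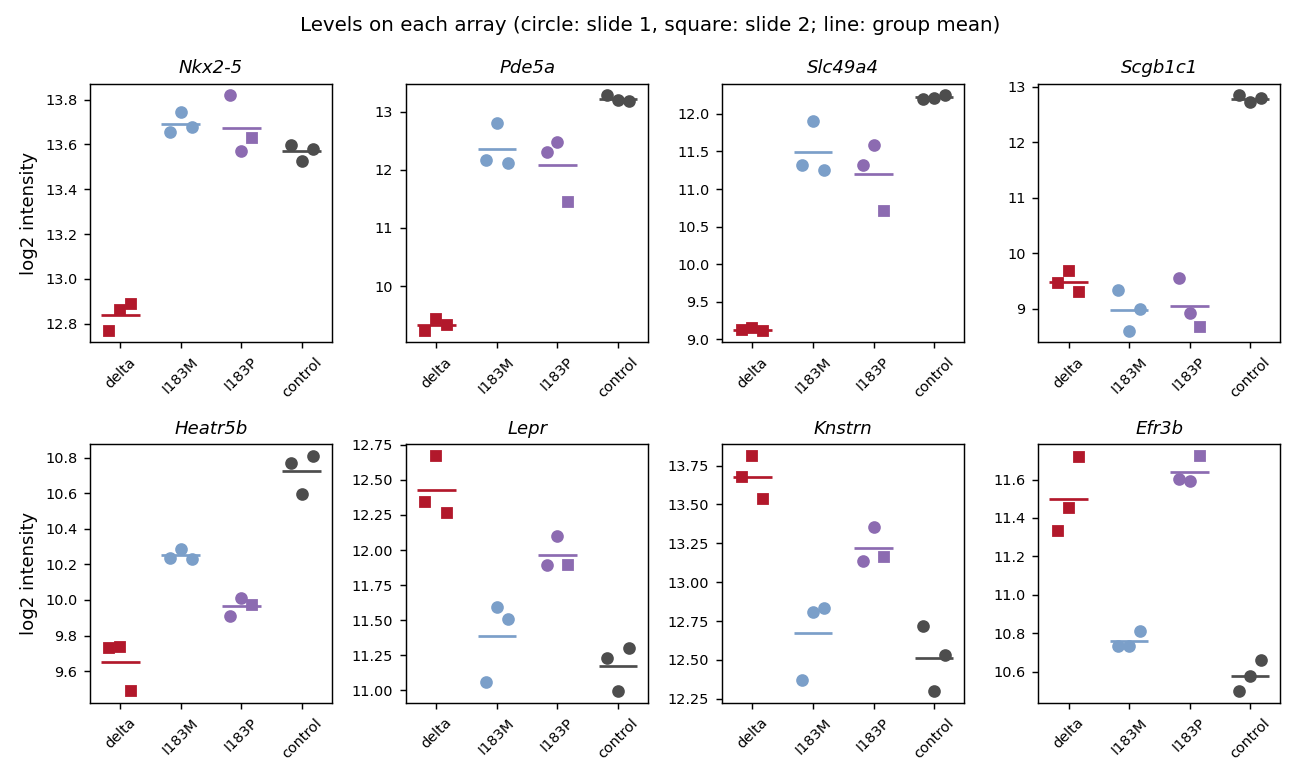
Log2 intensity on each of the 12 arrays for 8 genes, with the lines on the x axis in the order delta, I183M, I183P and control; circles are arrays of slide 1, squares arrays of slide 2, and bars the group means of 3 arrays. Nkx2-5, Pde5a and Slc49a4 were lowest in delta, Scgb1c1 was high in control alone, and Efr3b was as high in I183P as in delta.

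The remaining 8 genes that fell had folds between -1.25 and -0.79. Heatr5b on chromosome 17, which takes part in endosomal traffic, had the smallest p of them, with 9.73, 9.74 and 9.49 on the delta arrays and 10.77, 10.60 and 10.81 on the control arrays. No value of the groups overlapped, and the fold was -1.08 (SE 0.10, adjusted p 0.00545), with -0.73 at a second, dimmer probe. Its levels in I183M (10.25) and I183P (9.96) lay between, and the slide-block fold was -1.08 with an adjusted p of 0.687. Cideb on chromosome 14, which promotes the fusion of lipid droplets and the lipidation of lipoproteins in liver, read 10.27, 10.29 and 10.43 in delta, against 11.45, 11.48 and 11.58 in control. Its fold was -1.18 (SE 0.14, adjusted p 0.019), and a dimmer second probe gave -1.43, or -0.55 without control replicate 1, where delta replicate 2 (8.81) lay above control replicate 3 (8.75). I183P (10.38) was at the level of delta for Cideb, and the fold of delta against I183P was -0.05.

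Tmem82, a membrane protein of little-known function, had a fold of -1.25 (adjusted p 0.0469). Lad1, which encodes the basement membrane protein ladinin, had -1.12 (adjusted p 0.0317), with I183M (7.30) and I183P (7.33) near delta (7.07) rather than near control (8.19). Dipk1b had -1.02 (adjusted p 0.019), with all 3 delta arrays (10.61, 10.57 and 10.42) below the other 9. Nrn1, the neurite outgrowth factor neuritin, had -0.99 (adjusted p 0.0463), and its mean in I183P (8.88) was that of delta (8.89) to within the spread of arrays. Slc31a2, a copper transporter, had -0.79 (adjusted p 0.0463), and its second probe had -0.11 with all arrays and -0.84 without control replicate 1, which alone was low there (6.68). The predicted gene Gm11992 had -1.01 (adjusted p 0.0345). Over all 23 alternatives the calls held in 18 for Heatr5b, 13 for Gm11992, 11 for Cideb and for Dipk1b, 10 for Lad1, 6 for Nrn1 and for Slc31a2 and 4 for Tmem82.

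Of the 5 genes that rose, Lepr on chromosome 4, the leptin receptor, had the largest fold. It read 12.34, 12.67 and 12.26 on the delta arrays, against 11.23, 10.99 and 11.30 on the control arrays. Delta lay above all other 9 arrays, and the fold was 1.25 (SE 0.17, adjusted p 0.0345), a ratio of 2.38. The I183P arrays came next, at 11.89, 12.10 and 11.89. That reading comes from the brightest of 4 Lepr probes, and the dimmer 3 had folds of 0.05, -0.11 and -0.03. Tnfsf10, the death ligand TRAIL, read 10.28, 10.13 and 10.51 in delta, against 9.16, 8.87 and 9.33 in control, with a fold of 1.19 (SE 0.17, adjusted p 0.0463), and its mean in I183P was 10.11. Knstrn, a spindle protein of dividing cells, read 13.67, 13.81 and 13.54 in delta, against 12.72, 12.30 and 12.53 in control, with a fold of 1.16 (SE 0.16, adjusted p 0.0354). Knstrn also has a dim second probe, well above background on only 2 delta arrays and 1 control array, whose fold was -0.05.

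Efr3b, a plasma membrane protein that anchors a lipid kinase, read 11.33, 11.45 and 11.72 in delta, against 10.50, 10.58 and 10.66 in control, with a fold of 0.92 (SE 0.11, adjusted p 0.019). Its I183P arrays read 11.60, 11.59 and 11.72 and overlapped those of delta, and I183P was itself higher than control by 1.06 (adjusted p 0.0241). Of the I183P arrays, 2 lie on the slide of the control arrays. Eprn had a fold of 0.79 (SE 0.11, adjusted p 0.04), with 8.13, 8.32 and 8.31 in delta, against 7.30, 7.52 and 7.57 in control. Among the features without a symbol that rose, the interval chr8:74333475-74384150 of build mm9 was the only one to pass against all 3 lines, with a fold of 1.31 against control (8.22, 8.21 and 8.73 in delta, against 7.25, 6.92 and 7.07 in control), 1.58 against I183M and 1.32 against I183P. The genes with the smallest p among those that did not pass on the higher side were Gstm2, a glutathione transferase (0.84, adjusted p 0.0504, with 0.88 and 0.76 at a further pair of probes), 1700028I16Rik (0.93, adjusted p 0.0522), Hap1, a partner of huntingtin (1.38, adjusted p 0.0522, and 0.10 at a dim second probe), Papola, the nuclear poly(A) polymerase (0.79, adjusted p 0.0522), and Gm19668 (1.10, adjusted p 0.057). Dimmer second probes of 1700028I16Rik and Gm19668 had folds of 0.12 and 0.39.

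Delta and control were next set against the I183M and I183P lines, to see for which of the 33 features delta stood apart from every line and for which control did. These contrasts share the delta arrays with the calls. In 30 of the 33 the fold against I183M had the sign of the call and in 28 the fold against I183P had it. Against I183M 5 of 33 passed, where 0.0189% of all features did (0.00378% higher and 0.0151% lower). Against I183P 5 passed, again with 0.0189% of all features (0.00378% higher and 0.0151% lower). The 5 were the same: Nkx2-5, Pde5a, Slc49a4 and the chr13 interval on the lower side, and the chr8 interval on the higher side. With control replicate 1 left out of the shared fit, 20 passed against I183M (0.559% of all features, 0.389% higher and 0.17% lower) and 7 against I183P (0.0378%, 0.0151% higher and 0.0227% lower). Of the 21 that fell, all delta arrays lay below all other 9 in 14, and all control arrays lay above all other 9 in 17. Of the 12 that rose, all delta arrays lay above all other 9 in 10, and all control arrays below all other 9 in 2. The calls themselves favour delta and control arrays that lie at the extremes. No share over all features is given beside these counts, so they only describe the called features.

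**Figure D3:**
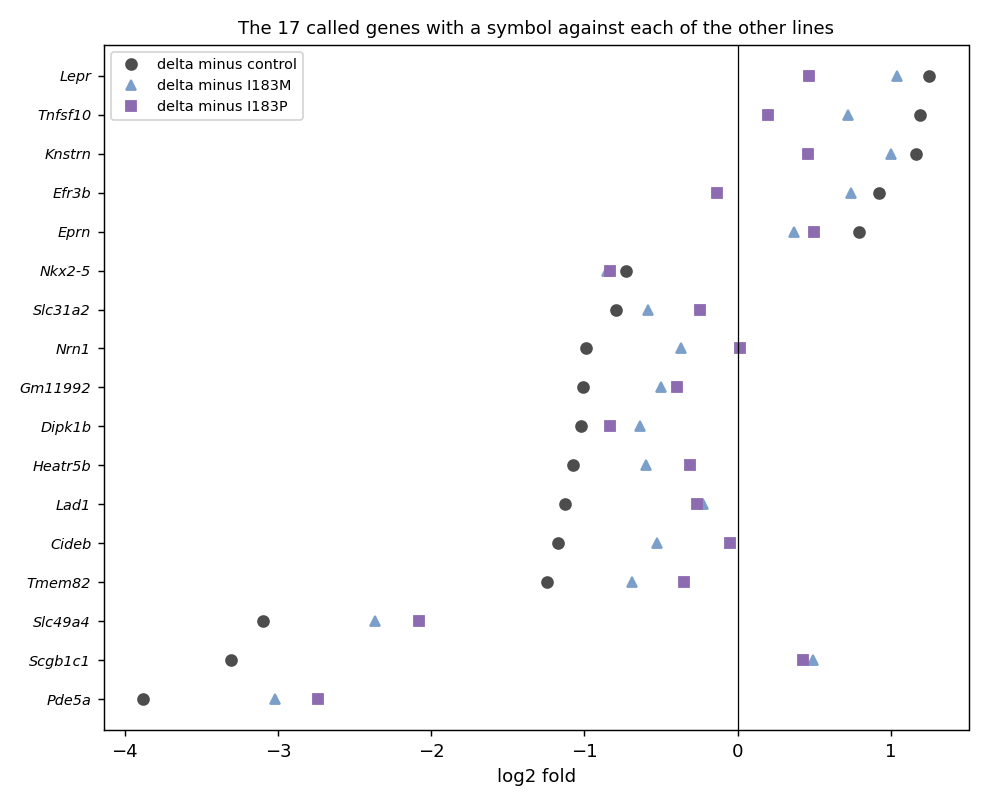
Log2 folds of delta minus control (circles), delta minus I183M (triangles) and delta minus I183P (squares) for the 17 called genes with a symbol. The 3 folds of Nkx2-5 lie together at -0.73, -0.85 and -0.83, those of Pde5a and Slc49a4 all lie below -2, and for Scgb1c1, Cideb, Nrn1 and Efr3b the fold against I183P is near 0 or has the other sign.

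The I183P arrays on both slides allowed a partial look at the slide. The difference of I183P replicate 3 from the mean of the other I183P arrays had the sign of the call in 25 of the 33 features, and was -0.94 for Pde5a, -0.75 for Slc49a4, -0.06 for Nkx2-5, -0.10 for Lepr and 0.01 for Heatr5b. With the slide as a block all 33 folds kept their sign, with a median ratio of 0.828 to the fold without it, and none passed (0 by limma, 905 features with an unadjusted p under 0.05). That fold is the original one less the I183P difference between slides, and uses the same delta and control arrays. The 33 were called for their folds on these arrays, so a kept sign is not an independent check. On the slide that holds the delta arrays, all delta arrays lay beyond the 1 I183P array in the direction of the call for 27 of 33 features, 17 of those that fell and 10 of those that rose. This rests on 1 I183P array and on features called from the same delta arrays, and no share over all features is given beside it.

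To show the sequence at the start of the genes whose change was deepest, and of the only called gene with a match to the motif searched, the windows from 250 bases before to 50 bases after the annotated start are printed for Pde5a (chr3:122728908-122729207, plus strand), Slc49a4 (chr16:35769321-35769620, minus strand), Scgb1c1 (chr7:140845315-140845614, plus strand) and Cideb (chr14:55758375-55758674, minus strand), from RefSeq with build GRCm38.p6. They read 5′ to 3′ on the strand of the gene, and capitals mark a match to the Nkx2-5 motif TNAAGTG on either strand.
Pde5a: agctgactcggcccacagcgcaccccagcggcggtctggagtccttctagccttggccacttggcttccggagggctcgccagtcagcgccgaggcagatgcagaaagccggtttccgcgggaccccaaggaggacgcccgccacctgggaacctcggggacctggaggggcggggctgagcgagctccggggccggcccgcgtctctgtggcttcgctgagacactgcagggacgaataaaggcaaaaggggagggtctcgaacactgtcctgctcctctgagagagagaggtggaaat
Slc49a4: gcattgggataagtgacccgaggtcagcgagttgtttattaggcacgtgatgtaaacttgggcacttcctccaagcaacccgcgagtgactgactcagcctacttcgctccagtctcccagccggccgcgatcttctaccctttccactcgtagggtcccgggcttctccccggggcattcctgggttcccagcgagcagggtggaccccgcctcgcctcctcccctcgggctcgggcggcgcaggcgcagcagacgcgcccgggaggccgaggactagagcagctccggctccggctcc
Scgb1c1: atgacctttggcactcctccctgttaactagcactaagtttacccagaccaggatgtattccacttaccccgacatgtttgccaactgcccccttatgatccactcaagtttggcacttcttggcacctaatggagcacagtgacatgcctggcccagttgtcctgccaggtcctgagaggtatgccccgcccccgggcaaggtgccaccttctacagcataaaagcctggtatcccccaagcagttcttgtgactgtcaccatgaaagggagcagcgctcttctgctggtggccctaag
Cideb: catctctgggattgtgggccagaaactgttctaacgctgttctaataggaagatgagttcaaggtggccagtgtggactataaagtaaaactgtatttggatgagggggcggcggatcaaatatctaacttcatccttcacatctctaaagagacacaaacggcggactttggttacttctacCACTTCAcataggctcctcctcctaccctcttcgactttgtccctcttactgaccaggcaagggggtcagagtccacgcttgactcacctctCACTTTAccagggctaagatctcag
The table held a window for 14 of the 17 called genes with a symbol, and 15 windows in all since Lepr has a pair of starts. The motif matched in 1 of these 15 windows (6.67%), against 11.5% of all 32851 windows. Both matches in Cideb are on the opposite strand and begin 67 bases before and 25 bases after the first base of the transcript. The stricter motif TTAAGTG was in none of the 15 and in 2.41% of all windows. A match is a description of these letters, and binding elsewhere was not measured.

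Without control replicate 1 the features called held 172 genes with a symbol, 62 that rose and 110 that fell. Of all 366 features called there, 351 had the same sign with all arrays. Gstm2, 1700028I16Rik, Hap1, Papola and Gm19668, described above, rose in that fit, with folds of 0.87, 0.91, 1.49, 0.88 and 1.08 (adjusted p 0.0226, 0.0306, 0.022, 0.0151 and 0.0338). On the higher side the largest folds among the genes not described above, all without control replicate 1, were those of Vgll2, a cofactor of TEAD factors in skeletal muscle (1.79, adjusted p 0.0372), Usp8, a deubiquitinase of endosomes (1.41, adjusted p 0.0371), Amy1, an amylase (1.41, adjusted p 0.0187), and Pde3b, a phosphodiesterase of cyclic AMP that cyclic GMP inhibits (1.17, adjusted p 0.0226). Amy1 read 12.45, 12.76 and 12.76 in delta, against 11.26 and 11.27 on control replicates 2 and 3 and 9.62 on replicate 1. Pde3b read 10.85, 10.77 and 10.34 in delta, against 9.50 and 9.56 on control replicates 2 and 3 and 7.12 on replicate 1. For both the groups did not overlap, but I183M and I183P lay at the level of delta (12.19 and 12.43 for Amy1, 10.74 and 10.59 for Pde3b), so control was the line apart. Gm6787 (1.09), Apol10b (1.08), 1700071K01Rik (1.04) and Cyp17a1, a steroid hydroxylase (1.01), followed. A second, dimmer Apol10b probe had a fold of -0.52 with all arrays and 0.35 without control replicate 1. With control replicate 1 included, the groups overlapped for Vgll2 and 1700071K01Rik.

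On the lower side Plekhh1 (-2.16, adjusted p 0.0029), Emilin3, a glycoprotein of the extracellular matrix (-2.10, adjusted p 0.0023), the odorant receptor gene Olfr681 (-2.04, adjusted p 0.0045) and 3930402G23Rik (-2.01, adjusted p 0.0091) had the largest further folds without control replicate 1. All 4 were dim, and for Plekhh1 and 3930402G23Rik control replicate 1 lay at the level of delta. A second Olfr681 probe had a fold of -0.63 with all arrays and 0.05 without control replicate 1. Emilin3 averaged 6.83 ± 0.18 in delta and 8.41 ± 0.78 in control (SD, n = 3 each), where control replicate 1 was the lowest array, and its fold with all arrays was -1.58 (adjusted p 0.121). Ndrg4, which is needed for growth of heart muscle in zebrafish, was bright. It read 14.15, 13.98 and 12.94 in delta, against 15.38, 15.47 and 15.48 in control, with folds of -1.75 with all arrays (adjusted p 0.057) and -1.79 without control replicate 1 (adjusted p 0.0306). I183M and I183P averaged 14.20 and 13.82 for Ndrg4, and all 3 control arrays lay above the other 9. Pcp4, a calmodulin-binding peptide of Purkinje fibres, had -1.66 (adjusted p 0.0022) and Olfr362 -1.66 (adjusted p 0.0113). Pcp4 averaged 7.38 in I183M and 7.09 in I183P, nearer delta (6.95) than control (8.25). Olfr612 was not well above background on any delta array. With all arrays its fold was -1.15 (adjusted p 0.329), and the groups overlapped, with control replicate 1 (6.46) at the level of the delta mean (6.41). Without control replicate 1 its adjusted p was 0.0113. A second, dim Olfr612 probe had a fold of 0.02 with all arrays. Odorant receptor and amylase genes have close relatives in the genome, and cross-hybridization of their probes was not tested.

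Gene lists by function and by cell type were read by their counts and medians, beside 0.125% of all features called and a median fold of 0.05. With all 12 arrays, Nkx2-5 and Pde5a were the only members of any list that passed, so the groups below are described by levels. Without control replicate 1, where 1.38% of all features were called, 10 more members passed. These were Gucy1a1, Npr3 and Pde3b of the cyclic GMP list, Scn4b, Myh7b, Fzd7, Emilin3, Clu, Pcp4 and the clock gene Ciart.

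The cyclic GMP and natriuretic peptide list, which holds Pde5a, had 25 members. With all arrays 13 were above 0 and the median fold was 0.01, and without control replicate 1 3 rose and 1 fell. Gucy1a1, a subunit of the soluble guanylate cyclase that makes cyclic GMP, averaged 11.16 ± 0.13 in delta and 10.55 ± 0.16 in control (SD, n = 3 each). Its fold was 0.61 with all arrays (adjusted p 0.092) and 0.56 without control replicate 1 (adjusted p 0.0465). Npr3, the clearance receptor of natriuretic peptides, read 9.58, 9.57 and 9.80 in delta, against 9.22, 9.01 and 9.13 in control, with 0.53 (adjusted p 0.111) and 0.61 without control replicate 1 (adjusted p 0.0403). The groups did not overlap for either gene. The natriuretic peptide genes Nppa and Nppb had folds of -0.12 (SE 0.40) and -0.28 (SE 0.73), the receptor Npr1 -0.14 (SE 0.17), the kinase Prkg1 0.68 (SE 0.42) and the phosphodiesterase Pde2a -0.01 (SE 0.11), and none passed in either fit.

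Of 27 cardiac transcription factors, only Nkx2-5 passed, 15 were above 0 and the median was 0.06, against -0.13 without control replicate 1. Gata4 had a fold of -0.08 (SE 0.11), Tbx5 of -0.22 (SE 0.18) and Tbx20 of 0.18 (SE 0.13). Of 19 genes that earlier work has linked to Nkx2-5 in the heart, none passed, and the list's median was 0.06. The smallest p among these was that of Smyd1, a histone methyltransferase of muscle that also serves the thick filament, with 13.66, 13.74 and 13.78 in delta, against 13.12, 13.33 and 13.21 in control. The fold of Smyd1 was 0.51 (SE 0.12, adjusted p 0.155), with no overlap. Id2, an inhibitor of basic helix-loop-helix factors that Nkx2-5 is known to act with in the conduction system, had 1.36 with all arrays and 0.73 without control replicate 1 (adjusted p 0.284 and 0.0578), and Hopx, a small homeodomain protein, had -0.41 (adjusted p 0.433). Ankrd1, which Nkx2-5 is known to act on, had a fold of 0.26 (SE 0.35).

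No channel gene passed with all arrays. Of 19 sodium and calcium channel genes 12 were above 0, with a median of 0.21 (0.03 without control replicate 1). Scn4b, a beta subunit of the cardiac sodium channel, read 14.14, 14.01 and 14.04 in delta, against 13.01, 13.44 and 12.69 in control. Its fold was 1.02 (SE 0.18, adjusted p 0.0772) and 1.00 without control replicate 1, where it rose (adjusted p 0.0406). The I183P arrays were higher still, and the Scn4b fold of delta against I183P was -0.38 (adjusted p 0.941). Of 24 potassium channel genes none passed, and the median was 0.04 (-0.19 without control replicate 1). Kcnj5, a subunit of the acetylcholine-gated channel, read 13.51, 13.56 and 13.43 in delta, against 12.83, 12.73 and 12.77 in control, with 0.73 (SE 0.20, adjusted p 0.196). Of 18 connexin, pacemaker channel and desmosome genes 16 were above 0 with a median of 0.12. Without control replicate 1 the folds of Gja5, Gjc1, Dsc2, Popdc2 and Jup turned below 0, and the other signs held. In the adrenergic and cyclic AMP list of 24 the smallest p was that of Adcy5, the main adenylyl cyclase of heart muscle, which read 11.53, 11.63 and 11.39 in delta, against 12.39, 12.06 and 12.13 in control (-0.68, adjusted p 0.0924, and 0.0523 without control replicate 1).

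No contractile gene passed with all arrays. Of 38 sarcomere genes 20 were above 0 and the median was 0.01. Myh7b, a slow-type myosin heavy chain, read 16.10, 16.10 and 16.48 in delta, against 15.30, 15.54 and 15.47 in control. Its fold was 0.79 (SE 0.14, adjusted p 0.0792), and it rose without control replicate 1 (0.72, adjusted p 0.0431). Myh7, the slow beta myosin of the fetal ventricle, read 15.40, 15.55 and 17.27 in delta, against 13.82, 13.79 and 14.78 in control, with a fold of 1.94 (SE 0.55, adjusted p 0.218). The groups did not overlap for Myh7, though delta replicate 3 lay far above the other delta arrays. Ttn, the giant spring of the sarcomere, had -0.39 (SE 0.09, adjusted p 0.128). Of 27 calcium cycling genes none passed, with a median of 0.08. The smallest p there was that of S100a1, a regulator of the ryanodine receptor (-0.41, adjusted p 0.15), and Casq2, the calcium store protein, had -0.37 (adjusted p 0.372). For Ttn, S100a1, Casq2, Hopx and Ldha the sign turned under the 75th percentile scaling and under median centring.

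The lists of energy use had medians near that of all features. The median fold was -0.01 for 43 genes of oxidative phosphorylation, -0.01 for 34 of fatty acid use, -0.03 for 29 of glycolysis and 0.02 for 40 ribosomal protein genes, and no member passed. Atp5c1, a subunit of ATP synthase, had 0.45 (adjusted p 0.187), Ucp3, a mitochondrial carrier tied to fatty acid load, -0.70 (adjusted p 0.174), and Ldha, lactate dehydrogenase, -0.42 (adjusted p 0.12).

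Signalling lists moved with control replicate 1. The median of 28 TGF-beta and BMP genes was 0.25, against 0.10 without it, that of 17 Notch genes was 0.24 against -0.09, and that of 24 Wnt genes 0.26 against 0.02. On control replicate 1 alone these lists read -0.56, -0.90 and -0.72 relative to each gene's mean over the arrays, and between -0.18 and 0.20 on the 3 delta arrays. Tgfb2, a TGF-beta ligand, read 10.61, 10.51 and 11.35 in delta, against 9.79, 9.82 and 10.05 in control (0.93, adjusted p 0.122), and Nog, the BMP antagonist noggin, had 0.81 (adjusted p 0.17). Heyl, a Notch target, had 0.99 with all arrays and 0.56 without control replicate 1 (adjusted p 0.266 and 0.0762). Fzd7, a Wnt receptor, rose without control replicate 1 (0.53, adjusted p 0.0429), with 9.05, 8.87 and 8.79 in delta against 8.40 and 8.41 on control replicates 2 and 3, and Lrp5, a Wnt co-receptor, had 0.37 (adjusted p 0.14).

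The interferon response list stood higher in delta without any member passing. Of its 36 members 31 were above 0, the median was 0.37, and 17 did not overlap between the groups (47.2%, against 16.7% of all features). The median was 0.30 without control replicate 1. Ifit3, an antiviral effector, read 10.59, 10.12 and 10.34 in delta, against 9.57, 9.53 and 9.85 in control (0.70, adjusted p 0.14). Ifit2 had 0.77 (adjusted p 0.163), the RNA sensor Ifih1 0.38 (adjusted p 0.175) and the guanylate-binding protein Gbp4 1.37 (adjusted p 0.188). Set against each gene's mean over all arrays, the list read 0.24, 0.06 and 0.18 on the delta arrays, against -0.31, -0.17 and -0.13 on the control arrays. I183M was at the level of control (-0.24, -0.12 and -0.18) and I183P at or above that of delta (0.14, 0.14 and 0.39), with its highest value on the array that shares the slide of the delta arrays.

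**Figure D4:**
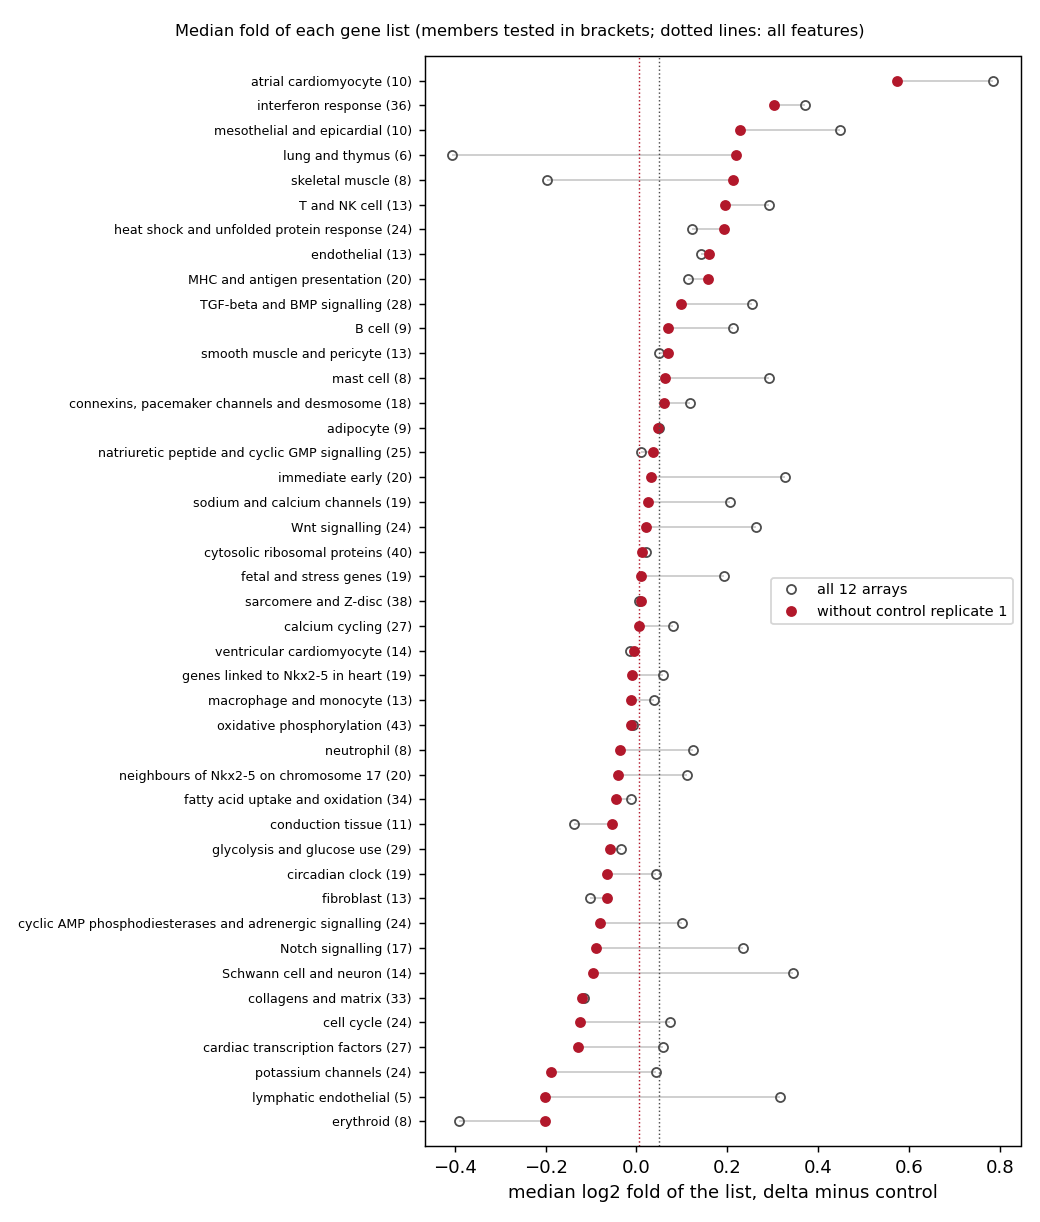
Median log2 fold of delta minus control for 43 gene lists, with open circles for all 12 arrays and filled circles without control replicate 1; dotted lines mark the medians of all features, 0.05 and 0.01. The atrial, interferon and mesothelial lists lie highest with and without that array, while the Notch, Wnt and lymphatic lists move toward 0 or below without it.

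Markers of other cells were read in the same way. The atrial list of 10 had a median of 0.79, but its arrays scattered within the groups: 1.15, -0.45 and 0.57 in delta, against -0.64, -1.01 and 0.51 in control. Sln, the atrial regulator of the calcium pump, read 14.59, 10.80 and 13.31 in delta, against 9.24, 7.35 and 12.48 in control (3.21, SE 1.59, adjusted p 0.502), and overlapped. Clu, the chaperone clusterin on the same list, went the other way and fell without control replicate 1 (-0.81, adjusted p 0.0472), with 16.64, 16.54 and 17.05 in delta against 17.57 and 17.53 on control replicates 2 and 3. Of 10 mesothelial and epicardial markers 9 were above 0, with a median of 0.45, and Krt18 and Msln had 0.61 and 1.14 (adjusted p 0.214 and 0.524). Of 8 erythroid markers 1 was above 0, with a median of -0.39, and Hbb-bs read 12.12, 11.75 and 13.06 in delta, against 13.37, 13.41 and 12.25 in control. Macrophage markers had a median of 0.04, and the chemokine receptor Cx3cr1 1.46 (adjusted p 0.111). Mast cell markers had 0.29, with the tryptase Tpsb2 at 1.72 (adjusted p 0.167), fibroblast markers -0.10, endothelial markers 0.14 and T and NK cell markers 0.29. Of 8 skeletal muscle genes 3 were above 0, with the myosin light chain Myl1 at 1.55 (adjusted p 0.0939) and a list median of -0.20, against 5 above 0 and a median of 0.21 without control replicate 1. The remaining lists held no further call with all arrays. Their medians were 0.19 for fetal and stress genes, -0.11 for collagens and matrix, 0.11 for MHC and antigen presentation, 0.12 for heat shock, 0.04 for the circadian clock, 0.33 for immediate early genes and 0.07 for the cell cycle. Among marker lists they were -0.14 for conduction tissue, 0.32 for lymphatic endothelium, 0.05 for smooth muscle and pericytes, 0.21 for B cells, 0.12 for neutrophils, 0.05 for adipocytes, 0.34 for Schwann cells and neurons and -0.41 for lung and thymus. Many of these medians moved when control replicate 1 was left out. They were then 0.01 for fetal and stress genes, -0.12 for collagens and matrix, 0.16 for MHC, 0.19 for heat shock, -0.06 for the circadian clock, 0.03 for immediate early genes and -0.12 for the cell cycle. For markers they were -0.05 for conduction tissue, -0.20 for lymphatic endothelium, 0.07 for smooth muscle, 0.07 for B cells, -0.04 for neutrophils, 0.05 for adipocytes, -0.10 for Schwann cells and neurons and 0.22 for lung and thymus. Of the lists above, the atrial median was then 0.57, the mesothelial 0.23, the erythroid -0.20, the macrophage -0.01, the mast cell 0.06, the fibroblast -0.07, the endothelial 0.16 and the T and NK cell 0.19. The part of tissue sampling in any of the folds was not tested.

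Genes beside Nkx2-5 on chromosome 17 were read because an engineered allele carries its neighbourhood with it. Of the 10 nearest measured genes on each side, none of the 20 passed, 13 were above 0 and the median was 0.11 (-0.04 without control replicate 1). Bak1, a mediator of cell death that lies among them, had 0.27 (adjusted p 0.336). Heatr5b and Nkx2-5 are 2 of the 17 called genes on that chromosome. These counts hold only genes with a symbol. The called intervals chr17:32035750-32056000 and chr17:32044823-32045974 of build mm9, described above, are also on chromosome 17, with folds of -1.34 and -1.49. Their distance from Nkx2-5 was not measured. Without control replicate 1, 6 of the 172 called genes were on chromosome 17 (3.49%), against 5.04% of all genes tested.

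**Figure D5:**
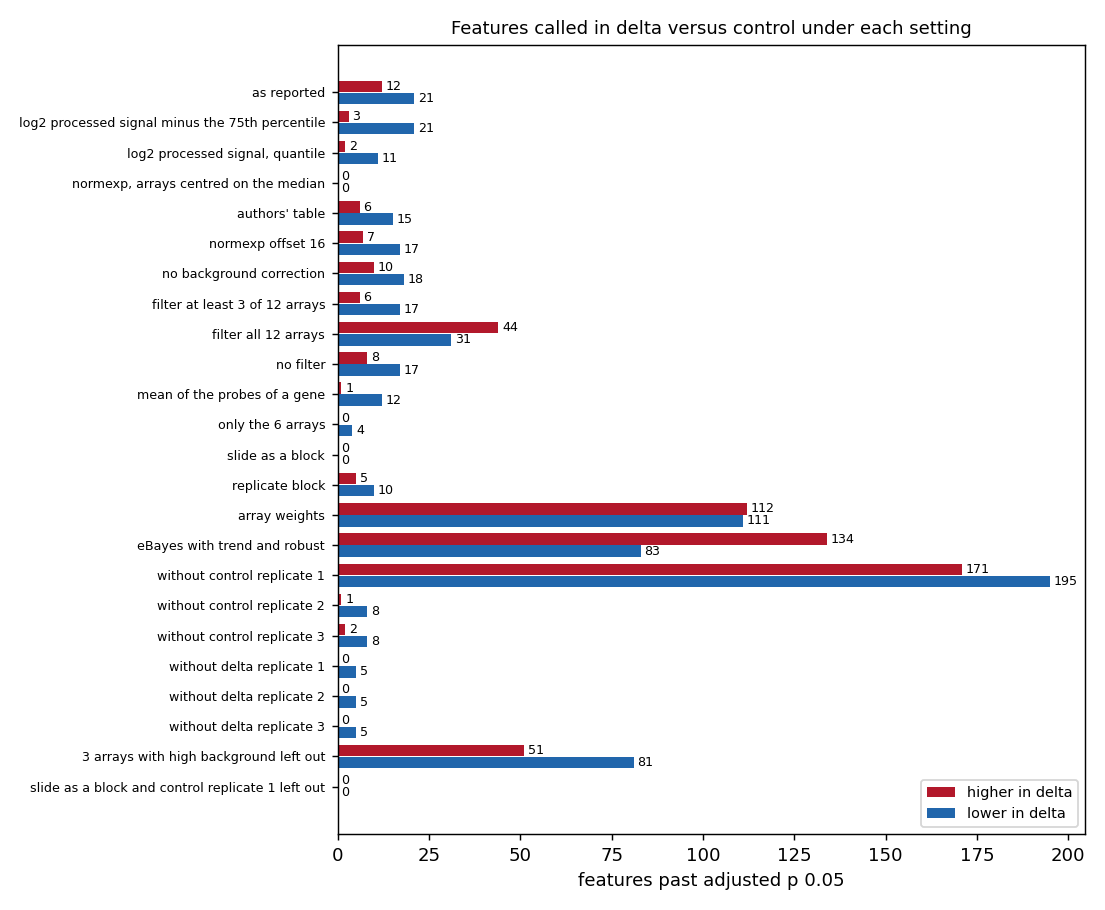
Number of features past an adjusted p of 0.05 in delta versus control under each setting, with bars for higher above bars for lower. The counts run between 0 under median centring or the slide block and 171 higher and 195 lower without control replicate 1.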

How the data were processed

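RNA was labelled with Cy3 and hybridised to 1-colour Agilent arrays, and the deposited intensity values are Feature Extraction 11.0.1.1 output (protocol GE1_1100_Jul11), per the file headers. The submitters' processing notes name Feature Extraction and limma. The authors' deposited log2 table of the same arrays was used as an alternative, with its scale and centring taken from its match to the scanner values. Median spot and background signals were corrected here with normexp (offset 50) and quantile normalized over 59305 spots. Outlier spots were dropped, spots of a probe were averaged, and 96 probes with a missing value were left out. Control replicate 1 was set aside in filtering, and the 36043 probes kept were detected over background by at least 3 of the remaining 11 arrays, and a gene took its brightest probe. Symbols came from RefSeq (GRCm38.p6) for 27235 of 55681 probes. One mean per group was fitted over 12 arrays with limma 3.58.1 in R 4.3.3 (8 residual degrees of freedom), and every adjusted p is limma's with Benjamini-Hochberg adjustment over 26490 features unless said otherwise. The number of arrays limits the precision. The code was tested on simulated data. Named genes were those past the threshold, at most 15 in each direction and filled up to 10 on a side with the smallest p, the 8 largest further folds on each side without control replicate 1, and up to 4 list members with the smallest p. Others were chosen after their values were seen, and 1 gene that the rule names is not reported here. The comparison, the alternatives and the gene lists were chosen with earlier results of these data known. In all, 21 planned and 2 added alternatives were run.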

Additional observations from a re-analysis of the deposited data

How the results depend on the processing

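The number of features higher in delta than in control and the number of features lower in delta than in control, 12 and 21 as reported, were 3 and 21 with the 75th percentile scaling, 2 and 11 with the processed signal after quantile normalization, 0 and 0 with median centring, 6 and 15 with the authors' table, 7 and 17 with an offset of 16, 10 and 18 with no background correction, 6 and 17 with the filter over 12 arrays, 44 and 31 with all 12 required, 8 and 17 with no filter, 1 and 12 with the mean of a gene's probes, 0 and 4 with the 6 arrays alone (1345 unadjusted), 0 and 0 with a slide term, 112 and 111 with array weights, and 134 and 83 with a trended, robust prior. Leaving out 1 array gave 0 to 171 higher and 5 to 195 lower. Chosen after seeing the data, leaving out 3 arrays with high background gave 51 and 81, and the slide block without control replicate 1 gave 0 and 0 (2710 unadjusted). Of the features called against control, the 5 passing against I183M and the 5 against I183P became 0 and 0 with the 75th percentile, median centring, the slide block with or without control replicate 1, 3 and 3 with the mean of probes, 28 and 17 with array weights, 14 and 4 with the trended prior, and 8 and 0 without the 3 arrays, and ran over 0 to 20 and 0 to 7 with 1 array left out. Replicate numbers did not pair the samples (correlations of deviations -0.61, -0.61 and 0.16), and a replicate block gave 5 higher and 10 lower, with 3 and 0 against the other lines and an Nkx2-5 fold of -0.73 (adjusted p 0.0894). The Nkx2-5 fold was no longer past the threshold at -0.22 with the 75th percentile, -0.66 with the processed quantile signal, -0.071 with median centring, -0.73 with the 6 arrays alone, -0.67 with the slide block and -0.65 with that block without control replicate 1, and leaving out 1 array gave -0.75 to -0.69. With the 75th percentile and median centring the sign turned for Hopx (0.047 and 0.27), S100a1 (0.063 and 0.30), Casq2 (0.14 and 0.36), Ttn (0.17 and 0.36) and Ldha (0.094 and 0.32). Apart from the changes named in the report, the cause of these shifts was not tested.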

Other observations

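The genes in this paragraph were chosen after their values were seen, from those called without control replicate 1. Lrrc10, a leucine-rich repeat protein of heart muscle that is known as a target of Nkx2-5, read 14.22, 14.32 and 13.38 in delta, against 14.67, 15.44 and 15.12 in control, with a fold of -1.30 without control replicate 1 (SE 0.25, limma adjusted p 0.0384) and -1.10 with all arrays (adjusted p 0.14). The groups did not overlap, but Lrrc10 averaged 14.57 in I183M and 14.07 in I183P, and the fold of delta against I183P was -0.09. Casz1, a zinc finger factor of heart development, read 11.67, 11.68 and 11.58 in delta, against 10.04, 10.80 and 10.68 in control, with 0.93 without control replicate 1 (adjusted p 0.0301) and 1.14 with all arrays (adjusted p 0.0869). Prlr, the prolactin receptor, had 0.96 without that array (adjusted p 0.0144) and 1.12 with it (adjusted p 0.057), with a fold of 0.27 against I183P. Tmem100, a membrane protein of vessels, had -0.85 without it (adjusted p 0.0371) and -0.65 with it (adjusted p 0.179), and its mean was 9.43 in delta and 9.14 in I183P. The clock gene Ciart had -1.17 without control replicate 1 (adjusted p 0.0358) and -0.11 with all arrays, so that call rests on leaving out 1 array.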
